A study of Homo sapiens with 8 samples.

Results

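The proteasome is the protease that degrades most short-lived proteins of the cell, and its subunits are encoded by genes whose symbols begin with PSM. Members were the genes of the deposited table named PSMA, PSMB, PSMC, PSMD, PSME, PSMF or PSMG with a number, which gave 47 of the 31461 genes listed. Of these, 46 reached at least 1 FPKM (a fragment count scaled to transcript length and to the total mapped fragments) in at least 2 of the 8 libraries and were tested. The exception, PSMB11, encodes a subunit of the thymus, and its highest value was 0.037 FPKM in control 2 labelled A549. Expression had been measured by RNA sequencing in the human lung cancer lines A549 and H1299, with 2 libraries for each combination of a line and a transfection. The transfection was a control microRNA or miR-29a-3p, which the labels describe as overexpressed, and both lines were labelled wild type. The study sought potential targets of this microRNA. No dose or duration of the transfection is known from the sources read, and no untransfected library was analysed here. Each line stands for 1 tumour.

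The core of the proteasome, the 20S particle, is a barrel of stacked rings. Its outer alpha rings gate the entrance and its inner beta rings hold the catalytic sites. A cap, the 19S particle, binds ubiquitinated proteins, unfolds them with a ring of ATPases and feeds them into the core. Interferons induce PSMB8, PSMB9 and PSMB10, which replace the constitutive catalytic subunits PSMB5, PSMB6 and PSMB7 in newly made cores, and the particle is then called the immunoproteasome. They also induce PSME1 and PSME2, which form an alternative cap. The immunoproteasome is known for cutting peptides that fit major histocompatibility complex class I molecules, which display them to T cells.

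The transfected microRNA acts by pairing of its seed, bases 2 to 8, with messenger RNAs. Its mature sequence is shown with the seed in capitals, since the target sites given further on are read against it. It was taken from RefSeq on GRCh38.p14 (chr7:130876748-130876769, minus strand).
miR-29a-3p: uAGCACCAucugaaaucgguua

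Estimated depth was 12221310 to 15614821 fragments per library, with 12021 to 12837 genes at 1 FPKM or more. The line markers lay opposite to the labels: the A549-labelled controls had 24.3 ± 0.72 FPKM (SD, n = 2) of CDKN2A, a gene deleted in A549, against 0.0818 ± 0.043 in the H1299-labelled ones, where 5 of 7 A549 markers were higher without overlap. Lines are therefore named as labelled, and each direction between lines holds for the labels. Leukocytes hold the immunoproteasome without stimulation, so their markers were examined. Of 8 leukocyte markers, 7 were listed, and they summed to 0.313 to 0.486 FPKM in the controls labelled A549 and 0.337 to 0.447 after miR-29a-3p. In the libraries labelled H1299 the sums were 0.548 to 0.565 and 1.12 to 1.18 FPKM. MS4A1 was not listed, the means of PTPRC and CD3E were at most 0.0067 FPKM, and the highest single value was 0.964 FPKM. The 5 fibroblast markers summed to 0.301 to 0.471 FPKM in the A549-labelled controls and 0.202 to 0.300 after miR-29a-3p, against 2.21 to 2.32 and 3.43 to 3.503 labelled H1299. The 3 endothelial markers summed to 0.0582 to 0.141 FPKM and then 0.0434 to 0.0737 labelled A549, and to 0.00647 to 0.0179 and then 0.0684 to 0.0788 labelled H1299. The sums of all 3 lists were low but higher after miR-29a-3p labelled H1299, and their part in the results was not tested. In such bulk libraries, fewer cells of a type and less RNA per cell cannot be told apart.

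After miR-29a-3p, all 5 interferon-induced members rose in the libraries labelled H1299 and 2 of them, PSMB9 and PSME1, in those labelled A549, whereas the other members went in both directions. In the libraries labelled H1299, the interferon-induced members had a median log2 fold change of 0.76. Of the 41 other members tested there, 10 rose and 11 fell, with a median of -0.03. Over all genes tested, 25.1% rose and 24.8% fell, with a median of 0.00. The 56.5% of the 46 members that changed lay near the 50.0% of all genes. In the libraries labelled A549, 2 of the 5 interferon-induced members rose, with a median of 0.26, and 0 of the 41 others rose and 3 fell, with a median of -0.09. The 10.9% of members that changed there was below the 16.0% of all genes (7.3% higher and 8.66% lower). A gene was called at an adjusted p under 0.05 by limma on log2(FPKM + 1), a scale on which fold changes of low genes are understated. Nothing in the labels ties the replicates to separate cultures. The p-values therefore measure only how these libraries scatter, which may be technical.

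**Figure D1:**
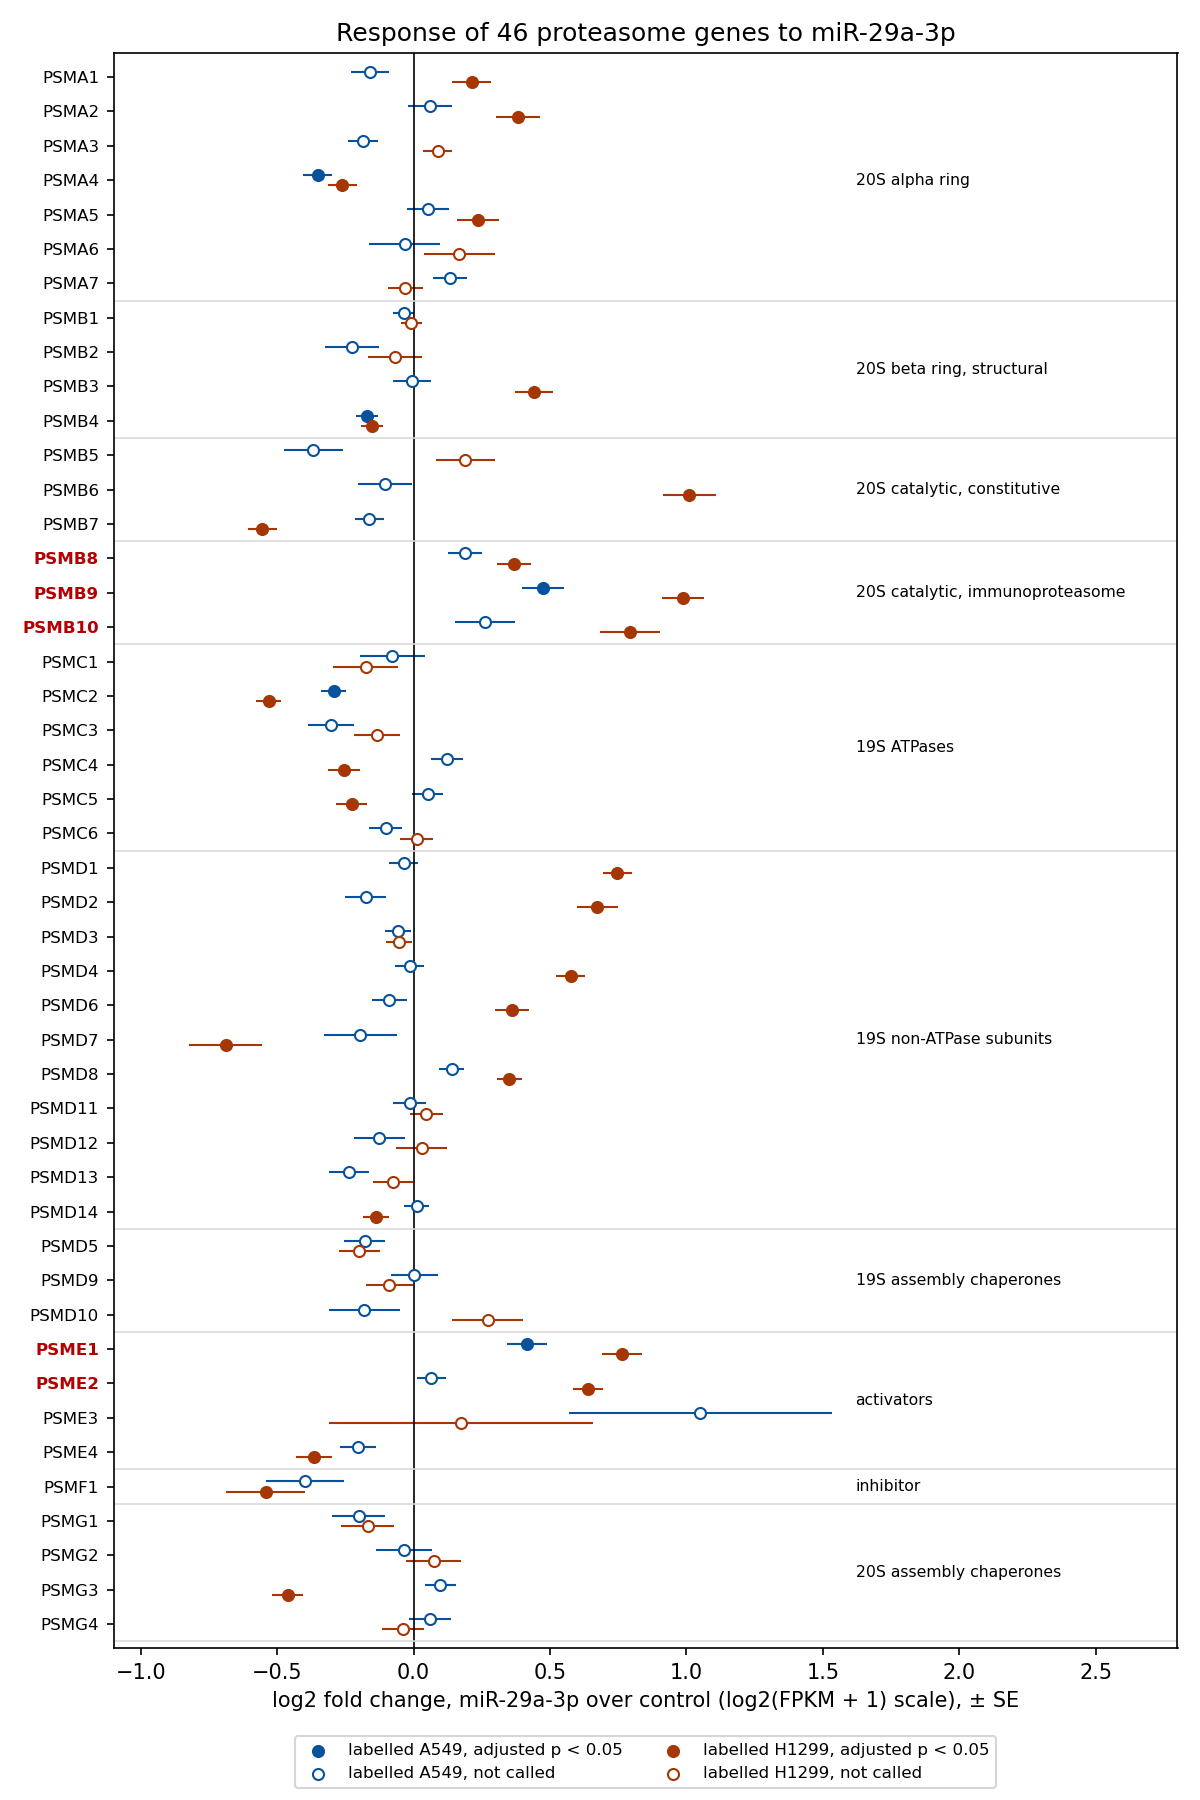
Log2 fold change after miR-29a-3p for the 46 members tested, ordered by role, in the libraries labelled A549 (blue) and H1299 (brown), with bars of 1 SE and filled points for an adjusted p under 0.05. The 5 interferon-induced members, in red letters, lie to the right of 0 in both lines, while the 41 others hold points on both sides.

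The immunoproteasome genes PSMB8 and PSMB9 lie close together in the major histocompatibility complex, as do PSME1 and PSME2 on chromosome 14. Their promoters and that of PSMB10 are shown because these 5 genes all rose labelled H1299. Each window runs from 250 bases before to 50 after the RefSeq start (GRCh38.p14). Capitals mark matches on either strand to the core of the interferon-stimulated response element (GAAA, any 2 bases, then GAAA), to TTCNNNGAA, the gamma-activated site, or to TGACNNNGC, the core of the antioxidant response element.
PSMB8, chr6:32843998-32844297, minus strand: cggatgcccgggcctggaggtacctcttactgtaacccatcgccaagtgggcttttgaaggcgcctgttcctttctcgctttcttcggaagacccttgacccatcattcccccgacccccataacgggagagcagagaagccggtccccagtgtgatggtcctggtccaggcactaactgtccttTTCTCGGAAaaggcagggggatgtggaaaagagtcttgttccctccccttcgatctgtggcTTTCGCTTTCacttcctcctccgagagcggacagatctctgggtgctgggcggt
PSMB9, chr6:32853942-32854241, plus strand: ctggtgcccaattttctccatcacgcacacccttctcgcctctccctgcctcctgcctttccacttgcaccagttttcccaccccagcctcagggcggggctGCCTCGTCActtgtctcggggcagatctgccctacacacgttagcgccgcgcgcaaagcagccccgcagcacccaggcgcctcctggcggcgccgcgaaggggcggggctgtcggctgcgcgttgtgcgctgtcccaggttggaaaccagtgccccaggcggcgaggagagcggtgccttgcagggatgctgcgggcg
PSMB10, chr16:67936801-67937100, minus strand: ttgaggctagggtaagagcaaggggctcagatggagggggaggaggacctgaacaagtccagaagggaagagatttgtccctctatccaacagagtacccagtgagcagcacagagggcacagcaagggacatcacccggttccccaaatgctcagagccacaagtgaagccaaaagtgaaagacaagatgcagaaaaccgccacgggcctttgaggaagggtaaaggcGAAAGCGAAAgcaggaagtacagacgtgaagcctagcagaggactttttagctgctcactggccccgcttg
PSME1, chr14:24135944-24136243, plus strand: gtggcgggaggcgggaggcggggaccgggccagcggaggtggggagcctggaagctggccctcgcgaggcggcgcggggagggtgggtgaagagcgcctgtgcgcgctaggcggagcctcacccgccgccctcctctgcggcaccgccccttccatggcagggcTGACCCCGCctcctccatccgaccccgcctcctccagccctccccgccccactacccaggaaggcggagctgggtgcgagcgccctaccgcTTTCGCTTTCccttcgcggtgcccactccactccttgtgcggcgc
PSME2, chr14:24146561-24146860, minus strand: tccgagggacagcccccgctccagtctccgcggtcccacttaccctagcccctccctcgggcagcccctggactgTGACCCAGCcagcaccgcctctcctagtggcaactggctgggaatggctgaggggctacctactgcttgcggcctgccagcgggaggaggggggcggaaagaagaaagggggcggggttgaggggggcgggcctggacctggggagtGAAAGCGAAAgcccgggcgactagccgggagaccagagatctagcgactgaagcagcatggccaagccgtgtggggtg

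The same 10 letters, GAAAGCGAAA on one strand or the other, stood close to the start in 4 of these 5 windows. They began at position -4 in PSMB8, -21 in PSMB10, 6 in PSME1 and -28 in PSME2, counted from the start with no position 0. The response element core was present in 4.38% of the 27305 genes of the promoter table and in 3 of the 36 other members with an entry (8.33%), namely PSMA4, PSMB4 and PSMG4. Of these, PSMA4 and PSMB4 fell in both lines and PSMG4 was not called in either. None of the other members that rose labelled H1299 and have an entry holds this core. Whether the core goes with a change was not tested. Promoters of 41 of the 47 members were matched by symbol, and those of PSMA7, PSMB1, PSMB6, PSMB7, PSMD4 and PSMG3 were not. The other RefSeq start of PSMB8 has no match to this core. The gamma-activated site letters occurred in 1 of the 5 interferon-induced members, PSMB8, in 6 of 36 others and in 9.38% of all genes. A match is a description of the letters and does not show that a factor binds there.

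PSMB9 (ENSG00000240065, chromosome 6, 32844136 to 32859585 on GRCh38), which takes the place of PSMB6, rose in both lines. It stood at 2.46 and 2.75 FPKM in the controls labelled A549 and at 4.25 and 3.78 after miR-29a-3p (log2 fold change 0.47 ± 0.078 (SE), adjusted p = 0.0116). Labelled H1299, it stood at 4.25 and 3.82 FPKM in the controls and at 9.07 and 8.88 after miR-29a-3p (log2 fold change 0.99 ± 0.078 (SE), adjusted p = 1.46e-04). Treated and control libraries did not overlap in either line, and the mean was 1.54 times the control level labelled A549 and 2.22 times labelled H1299. The call labelled A549 was lost without control 1 (adjusted p = 0.0589), without miR-29a-3p 1 (adjusted p = 0.0593) and with that line fitted alone (adjusted p = 0.0645).

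PSMB8 (ENSG00000204264, chromosome 6, 32840717 to 32844703), the counterpart of PSMB5, was the most abundant of the 3 inducible catalytic genes in every library. Labelled H1299, it rose from 11.6 and 10.6 FPKM in the controls to 14.8 and 14.4 (log2 fold change 0.37 ± 0.062 (SE), adjusted p = 0.00336). Labelled A549, it stood at 17.7 and 18.5 and then at 21.6 and 19.96 FPKM, without overlap between the groups but short of the threshold (log2 fold change 0.19 ± 0.062 (SE), adjusted p = 0.0918). So few libraries can lie apart by scatter, so no rise of PSMB8 labelled A549 is drawn from it. PSMB8 and PSMB9 share 139 exonic bases on opposite strands, and the antisense gene PSMB8-AS1 lay at 0.281 to 0.553 FPKM. With no strand setting stated, fragments of the shared bases cannot be told apart.

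PSMB10 (ENSG00000205220, chromosome 16, 67934502 to 67937087), the counterpart of PSMB7, rose labelled H1299 from 3.69 and 3.70 FPKM to 6.22 and 8.16 (log2 fold change 0.79 ± 0.11 (SE), adjusted p = 0.00142). Its values labelled A549 were 6.06 and 5.92 in the controls and 7.67 and 7.08 FPKM after miR-29a-3p (log2 fold change 0.26 ± 0.11 (SE), adjusted p = 0.167). The controls were the lower libraries in both lines, with no overlap, though the change labelled A549 was not called. With so few libraries per group such a separation can arise by scatter, and its share over all genes was not counted. No rise of PSMB10 labelled A549 is drawn from it. A gene model on the same strand, AC040162.1, shares 34.8% of the exonic bases of PSMB10 and lay at 0.61 to 1.37 FPKM, so how fragments were split between them is uncertain.

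PSME1 and PSME2 encode the 2 kinds of chain in PA28, the interferon-induced cap that opens the core without ubiquitin. PSME1 (ENSG00000092010, chromosome 14, 24136158 to 24138967) rose labelled A549 from 15.4 and 13.7 FPKM to 20.01 and 19.4 (log2 fold change 0.42 ± 0.072 (SE), adjusted p = 0.0138). It rose labelled H1299 from 19.04 and 17.5 to 32.6 and 30.8 FPKM (log2 fold change 0.76 ± 0.072 (SE), adjusted p = 2.82e-04). The groups did not overlap in either line, and the call labelled A549 was lost without control 2 (adjusted p = 0.0603), without miR-29a-3p 1 (adjusted p = 0.0714), without miR-29a-3p 2 (adjusted p = 0.0555) and with the line fitted alone (adjusted p = 0.0541).

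PSME2 (ENSG00000100911, chromosome 14, 24143362 to 24147570) differed between the lines in its response. Labelled H1299, it rose from 6.60 and 6.34 FPKM to 10.3 and 10.96 (log2 fold change 0.64 ± 0.054 (SE), adjusted p = 1.91e-04). Labelled A549, it stood at 5.71 and 5.61 FPKM in the controls and at 5.83 and 6.11 after miR-29a-3p (log2 fold change 0.06 ± 0.054 (SE), adjusted p = 0.475). The response labelled A549 minus that labelled H1299 was -0.58 ± 0.077 (SE, adjusted p = 0.00218). PSME2 shares 216 exonic bases with RNF31 on the opposite strand, and its pseudogene PSME2P2 lay at 0.693 to 3.02 FPKM.

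**Figure D2:**
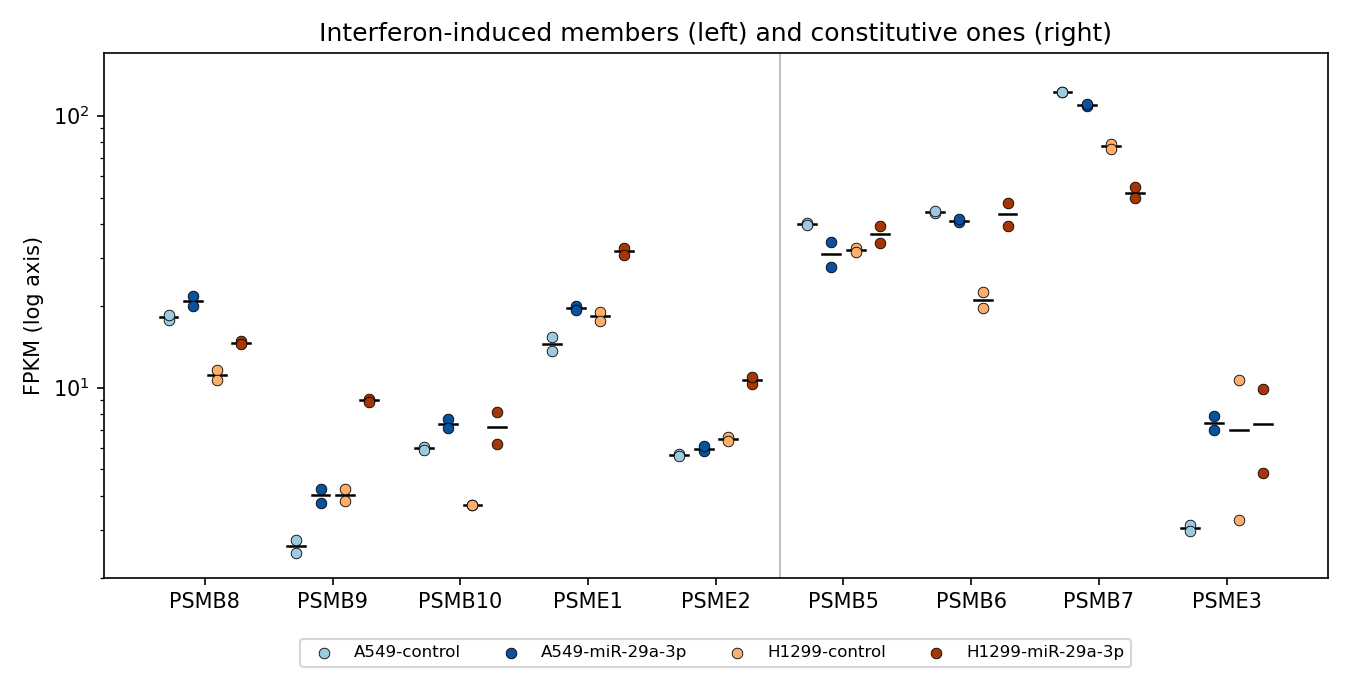
FPKM (log axis) of the interferon-induced members and of PSMB5, PSMB6, PSMB7 and PSME3 in each of the 8 libraries, with a bar at the mean of the 2 libraries of a group. PSMB9 labelled H1299 lies at 4.25 and 3.82 in the controls and at 9.07 and 8.88 after miR-29a-3p, and the H1299-labelled libraries of PSME3 are far apart in both groups.

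Of the 3 constitutive catalytic genes, PSMB6 rose and PSMB7 fell labelled H1299, and PSMB5 was not called. PSMB6 (ENSG00000142507, chromosome 17, 4796144 to 4798503), which cuts after acidic residues, stood at 19.6 and 22.4 FPKM in the controls labelled H1299 and at 39.4 and 47.6 after miR-29a-3p, the largest rise among the members in that line on the log2(FPKM + 1) scale (log2 fold change 1.01 ± 0.098 (SE), adjusted p = 3.14e-04). As a ratio of mean FPKM, the rise of PSMB9 was larger than that of PSMB6 (2.22 against 2.07 times). PSMB7 (ENSG00000136930, chromosome 9, 124353466 to 124415444), which cuts after basic residues, fell labelled H1299 from 78.7 and 75.4 to 54.5 and 49.8 FPKM (log2 fold change -0.56 ± 0.052 (SE), adjusted p = 2.82e-04). PSMB5 (ENSG00000100804, chromosome 14, 23016543 to 23035230), which cuts after hydrophobic residues and is the main target of bortezomib, had values of 32.6 and 31.4 and then 34.04 and 39.3 FPKM (log2 fold change 0.19 ± 0.11 (SE), adjusted p = 0.197). These 2 groups of PSMB5 libraries did not overlap, but the difference was within the spread the test allows.

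Labelled A549, none of the 3 constitutive catalytic genes was called. PSMB5 was at 40.3 and 39.8 FPKM in the controls and at 34.3 and 27.7 after miR-29a-3p (log2 fold change -0.37 ± 0.11 (SE), adjusted p = 0.0685), and passed only without miR-29a-3p 1 (adjusted p = 0.0360). PSMB6 was at 44.04 and 44.6 and then 40.7 and 41.6 FPKM, with an adjusted p of 0.523. PSMB7 was at 122 and 122 and then 108 and 110.0 FPKM, with an adjusted p of 0.0873. In each of these genes the treated libraries were the lower ones, without overlap. The share of all genes tested whose groups lay apart in this way was not counted. With so few libraries per group such a separation can arise by scatter, so no joint fall of these genes is drawn from it.

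Ratios of subunits within a library do not depend on how libraries are scaled. The share of PSMB8, PSMB9 and PSMB10 in the summed FPKM of the 6 catalytic genes was 11.3% and 11.6% in the controls labelled A549 and 15.5% and 14.7% after miR-29a-3p. It was 12.99% and 12.3% in the controls labelled H1299 and 19.1% and 18.7% after miR-29a-3p. The share was higher in the 4 treated libraries than in the controls of their line, by 3.63 percentage points labelled A549 and 6.22 labelled H1299. Labelled A549, the mean sum of the inducible genes went from 26.7 to 32.2 FPKM and that of the constitutive ones from 207 to 181. Both moved the share there, although no constitutive one was called. Labelled H1299, the sums went from 18.9 to 30.8 and from 130 to 132 FPKM. An exact permutation test within lines (two-sided, 36 relabelings) gave p = 0.0556, which is the smallest this design allows.

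Each inducible subunit was also set against the counterpart it replaces. The log2 ratio of PSMB10 to PSMB7 was -4.42 and -4.35 in the controls labelled H1299 and -3.13 and -2.61 after miR-29a-3p, as PSMB10 rose and PSMB7 fell. Labelled A549 it was -4.33 and -4.37 and then -3.82 and -3.96. For PSMB9 to PSMB6, the controls labelled H1299 (-2.21 and -2.55) and the treated libraries (-2.12 and -2.42) overlapped, since both genes rose. Labelled A549, that ratio was -4.16 and -4.02 and then -3.26 and -3.46, without overlap. For PSMB8 to PSMB5, the log2 ratio was -1.18 and -1.11 and then -0.66 and -0.47 labelled A549, and -1.49 and -1.56 and then -1.20 and -1.45 labelled H1299. Over both lines, exact permutation p-values adjusted over the 3 pairs were 0.0833 for PSMB10 to PSMB7, 0.0833 for PSMB8 to PSMB5 and 0.111 for PSMB9 to PSMB6, above 0.05 in a design whose smallest raw p is 0.0556.

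**Figure D3:**
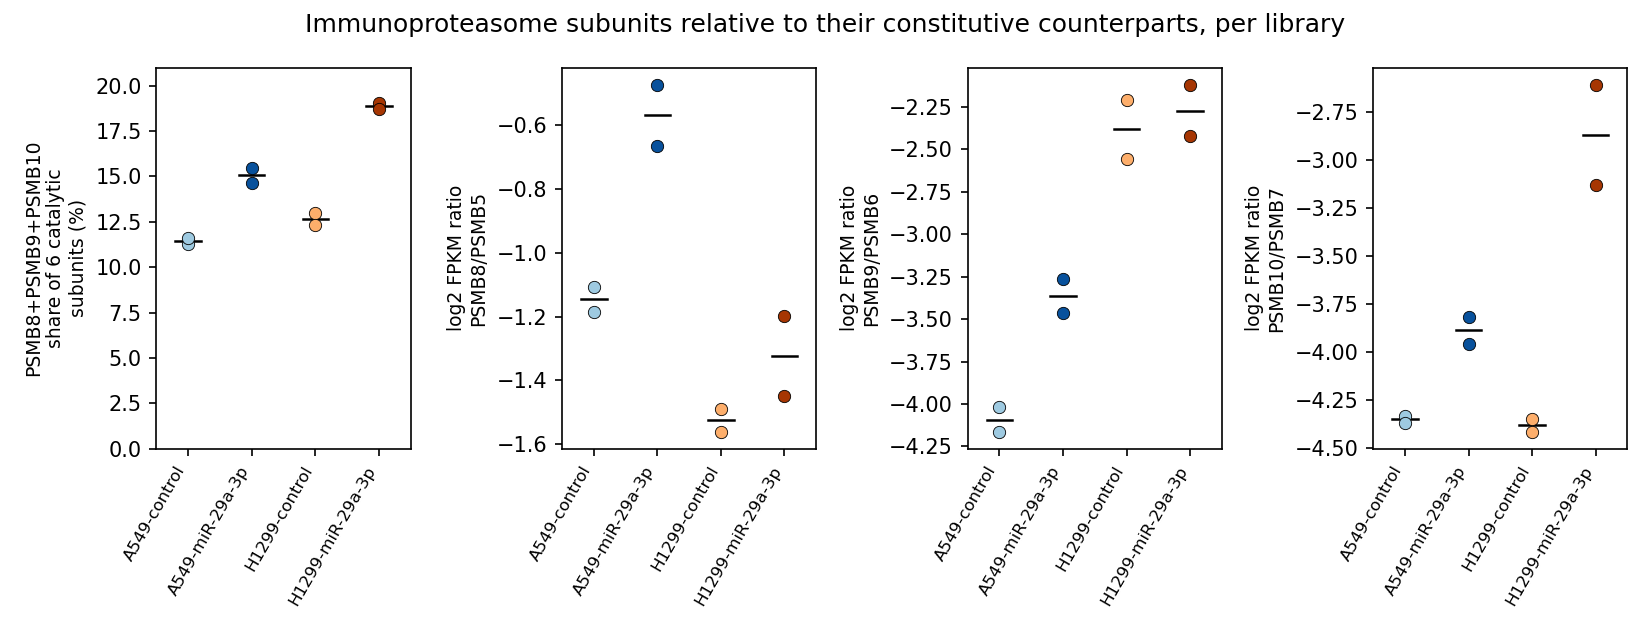
Share of the inducible subunits in the FPKM of the 6 catalytic genes (left, percent) and log2 FPKM ratio of each inducible subunit to its counterpart, per library, with a bar at the group mean. The share lies at 12.99% and 12.3% in the controls labelled H1299 and at 19.1% and 18.7% after miR-29a-3p, while the ratio of PSMB9 to PSMB6 overlaps between those groups.

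Among the alpha ring genes, the messages for the gate of the core, 3 of 7 rose and 1 fell labelled H1299, and 0 rose and 1 fell labelled A549, shares near those of all genes called (50.0% and 16.0%). PSMA4 was the 1 that fell in both lines. It stood at 8.07 and 8.47 FPKM in the controls labelled A549 and at 6.07 and 6.47 after miR-29a-3p (log2 fold change -0.35 ± 0.053 (SE), adjusted p = 0.00891), a call lost without control 2 (adjusted p = 0.0518) and with the line fitted alone (adjusted p = 0.0580). Labelled H1299 it stood at 7.55 and 7.63 and then 6.22 and 6.11 FPKM (log2 fold change -0.26 ± 0.053 (SE), adjusted p = 0.00713). The structural beta ring genes PSMB1 to PSMB4 held 1 that rose and 1 that fell labelled H1299. PSMB4 fell in both lines by small amounts, with log2 fold changes of -0.17 labelled A549 (adjusted p = 0.0353) and -0.15 labelled H1299 (adjusted p = 0.0186). Its A549 call was lost without any 1 of the 8 libraries (adjusted p = 0.0578 to 0.135), and its H1299 call without any H1299-labelled library (adjusted p = 0.0595 to 0.0788). PSMB1, the member with the highest level labelled A549, was at 150.1 and 152 FPKM there and at 150.2 and 145 after miR-29a-3p (adjusted p = 0.571).

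Of the 6 ATPases of the 19S cap, which unfold substrates, 0 rose and 3 fell labelled H1299, with a median log2 fold change of -0.20. These 3 calls match the share of all genes called there (50.0%). Labelled A549, 0 rose and 1 fell, with a median of -0.09. PSMC2 fell labelled H1299 from 21.3 and 21.9 FPKM to 14.5 and 14.9 (log2 fold change -0.53 ± 0.046 (SE), adjusted p = 2.04e-04). It also fell labelled A549, from 32.4 and 34.2 to 27.2 and 26.8 FPKM (log2 fold change -0.29 ± 0.046 (SE), adjusted p = 0.0101), a call lost when control 2 or miR-29a-3p 2 was left out (adjusted p = 0.0523 and 0.0519). PSMC4 and PSMC5 fell labelled H1299 by 0.26 and 0.23 on the log2 scale (adjusted p = 0.0115 and 0.0156). The PSMC4 call was lost when control 1 or miR-29a-3p 2 was left out (adjusted p = 0.0601 and 0.0646). That of PSMC5 was lost without any H1299-labelled library but control 1 (adjusted p = 0.0545 to 0.0754). Exons of PSMC5 overlap those of FTSJ3 on the opposite strand. PSMC1 is among the ATPases not called, but its level is uncertain. NRDE2 on the opposite strand covers 75.8% of the exonic bases of PSMC1, and the processed pseudogene PSMC1P1 was listed at 67.4 to 279 FPKM.

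Of the 11 other cap subunits, 5 rose and 2 fell labelled H1299, and none was called labelled A549. The log2 fold change labelled A549 was negative in 9 of the 11, in 30 of the 46 members and in 7225 of the 14635 genes tested. Over all genes, 50.0% were called labelled H1299 and 16.0% labelled A549. The 2 large scaffold subunits of the base rose. PSMD1 stood at 12.6 and 12.98 FPKM in the controls labelled H1299 and at 22.8 and 21.5 after miR-29a-3p (log2 fold change 0.75 ± 0.053 (SE), adjusted p = 1.03e-04). PSMD2 stood at 13.4 and 13.2 and then at 20.5 and 23.2 FPKM (log2 fold change 0.67 ± 0.075 (SE), adjusted p = 5.67e-04). PSMD4, a receptor for ubiquitin chains, stood at 20.4 and 19.9 and then at 29.8 and 31.2 FPKM (log2 fold change 0.58 ± 0.055 (SE), adjusted p = 2.86e-04). In all 3 genes the treated libraries were the higher ones, by a wide gap.

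PSMD7, a lid subunit that pairs with the deubiquitinase PSMD14, had the largest fall of the members. It stood at 24.6 and 27.2 FPKM in the controls labelled H1299 and at 16.1 and 15.3 after miR-29a-3p (log2 fold change -0.69 ± 0.13 (SE), adjusted p = 0.00559). Labelled A549, its libraries overlapped (35.3 and 45.2, then 31.8 and 37.9 FPKM, adjusted p = 0.373). A transcript on the opposite strand, AC009120.2, covers 30.7% of its exonic bases and lay at 1.48 to 2.58 FPKM. The assembly chaperones of the cap, PSMD5, PSMD9 and PSMD10, held no call in either line.

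The other activators and the inhibitor held no rise that passed the test. PSME3, a nuclear activator, stood at 3.13 and 2.97 FPKM in the controls labelled A549 and at 6.97 and 7.84 after miR-29a-3p, 2.43 times the control mean. Its libraries labelled H1299 were far apart within each group, at 3.27 and 10.7 in the controls and 4.85 and 9.86 FPKM after miR-29a-3p. With the spread pooled over the 4 groups, PSME3 missed the threshold labelled A549 (log2 fold change 1.05 ± 0.48 (SE), adjusted p = 0.197), and it passed with that line fitted alone (adjusted p = 0.0182). PSME4, the activator PA200, fell labelled H1299 from 8.68 and 9.67 to 6.79 and 6.999 FPKM (log2 fold change -0.36 ± 0.066 (SE), adjusted p = 0.00429). Labelled A549 it stood at 7.84 and 7.98 and then 6.49 and 6.98 FPKM (adjusted p = 0.0861). PSMF1, a proteasome inhibitor, fell labelled H1299 from 11.2 and 8.90 to 6.77 and 6.35 FPKM (log2 fold change -0.54 ± 0.14 (SE), adjusted p = 0.0203), a call lost without any H1299-labelled library but control 2 (adjusted p = 0.0599 to 0.101) and without the low-value filter (adjusted p = 0.0530).

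Labelled A549, PSMF1 was at 9.40 and 7.47 FPKM in the controls and at 6.70 and 5.59 after miR-29a-3p (adjusted p = 0.116). Of the core assembly chaperones PSMG1 to PSMG4, only PSMG3 was called, labelled H1299, where it fell from 15.95 and 17.8 to 12.02 and 11.9 FPKM (log2 fold change -0.46 ± 0.058 (SE), adjusted p = 9.09e-04). PSMG4 lay under 1 FPKM in every library labelled H1299 and was tested through its level labelled A549.

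Sites for miR-29a-3p were looked for in the longest 3′ UTR of each gene in GENCODE release 29 on GRCh38. A match to bases 2 to 8 of the microRNA was found in 5 of the 46 members tested (10.9%) and in 16.4% of the 11630 tested genes with an annotated 3′ UTR. The median 3′ UTR was 358 bases long in the members and 1355 over all genes. Of these 5 members, 4 also fell labelled H1299, where 24.8% of all genes tested fell. The share that fell among all genes with a site was not counted. Sites of these 4 members are shown in 30-base windows of the GRCh38 transcript, with the match in capitals.
PSMA4, chr15:78549610-78549639, plus strand: cttaatgcgtagccaTGGTGCTttagcatc
PSMD7, chr16:74305863-74305892, plus strand: cggtcactcttgctgTGGTGCTAcgtggaa
PSME4, chr2:53864960-53864989, minus strand: acagactggagttttTGGTGCTgaatagag
PSMF1, chr20:1167168-1167197, plus strand: tcctggtcaagcttaTGGTGCTtattttga

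The site of PSMD7 is followed by an A, which makes it an 8-base site, and the other 3 match 7 bases. The log2 fold changes labelled H1299 were -0.69 for PSMD7, -0.54 for PSMF1, -0.36 for PSME4 and -0.26 for PSMA4. Labelled A549 they were -0.20, -0.40, -0.20 and -0.35 in the same order, of which only PSMA4 was called. The fifth member with a match, PSMG4, holds 2 sites and was not called in either line, with log2 fold changes of 0.06 labelled A549 and -0.04 labelled H1299. The other 7 members that fell labelled H1299, PSMB4, PSMB7, PSMC2, PSMC4, PSMC5, PSMD14 and PSMG3, hold no such match in this 3′ UTR. A match is a sequence of letters and no measurement of binding.

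The response itself differed between the lines in 19 of the 46 members, by the test of the response labelled A549 minus that labelled H1299. Of these, 5 had a positive difference and 14 a negative one, or 41.3% against 37.3% of all genes (18.1% positive and 19.2% negative). The difference was -1.12 ± 0.14 (SE) for PSMB6, -0.85 ± 0.11 for PSMD2 and -0.78 ± 0.075 for PSMD1 on the log2 scale. Of the interferon-induced members, 4 of 5 had a smaller response labelled A549, and PSMB8 was not called (adjusted p = 0.162). Among the called members, PSMG3 had the highest difference, 0.56 ± 0.082 (adjusted p = 0.00300).

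The control libraries themselves differed in their proteasome levels. Relative to the controls labelled A549, 34 of the 46 members were lower and 4 higher in the controls labelled H1299, against 45.0% lower and 29.8% higher over all genes. The lower ones, here and below, include PSMG4. It was tested only because of its level labelled A549, so its call carries little weight. The 82.6% of members called compares with 74.8% of all genes. The 42 members outside the interferon-induced group summed to 1399 ± 17 FPKM (SD, n = 2) labelled A549 and 782 ± 8.7 labelled H1299. The 5 interferon-induced ones summed to 46.9 ± 0.69 and 43.6 ± 2.2 FPKM. Of the 41 others tested, 32 were lower and 1 higher, with a median log2 difference of -0.66. That of all genes was -0.17. With libraries rescaled, which moved the median of all genes to -0.01, 31 members were lower and 7 higher.

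On the log2(FPKM + 1) scale, the largest difference was in PSMB1, at 150.1 and 152 FPKM in the controls labelled A549 and 39.8 and 39.2 in those labelled H1299 (log2 difference -1.91 ± 0.038, SE, adjusted p = 1.26e-07). The cap subunit PSMD8 followed on that scale, at 116 and 113 FPKM labelled A549 against 37.5 and 36.8 labelled H1299. PSMD2 was at 43.9 and 40.04 against 13.4 and 13.2 FPKM. In these 3 genes the groups lay far apart. PSMB2 was lower as well, with a log2 difference of -1.38. PSMC1 was also lower, at -1.41, but its level is uncertain, since the processed pseudogene PSMC1P1 was listed at 67.4 to 279 FPKM. The 4 members higher in the controls labelled H1299 were PSMB9, PSME1, PSME4 and PSME2, with log2 differences of 0.48, 0.31, 0.19 and 0.16. The calls of PSME4 and PSME2 were lost without either control labelled A549, or without control 2 labelled H1299. That of PSME4 was lost as well without either miR-29a-3p library labelled H1299 (adjusted p = 0.0544 to 0.183 over these), and that of PSME2 without control 1 labelled H1299 (adjusted p = 0.0579 to 0.127 over these). PSMB8 and PSMB10 were lower there, by differences of -0.66 and -0.57.

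Levels of the members, compared per transcript length, spanned a wide range although most core and cap subunits occur in equal numbers in the particle. In the controls labelled A549 they ran from 2.60 FPKM for PSMB9 to 151 for PSMB1, with a median of 18.2 over the 46 genes. In the controls labelled H1299 they ran from 0.847 for PSMG4 to 85.7 for PSMA7, with a median of 11.2. The order was alike, with a Spearman rho of 0.93 across the 46 genes, which share transcript lengths and annotation and are not independent replicates. PSMB9 ranked 46 of 46 among the controls labelled A549 and 44 after miR-29a-3p. It ranked 40 among the controls labelled H1299 and 31 after miR-29a-3p. PSME1 was the highest interferon-induced member labelled H1299, at rank 15 among controls and 9 after miR-29a-3p.

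**Figure D4:**
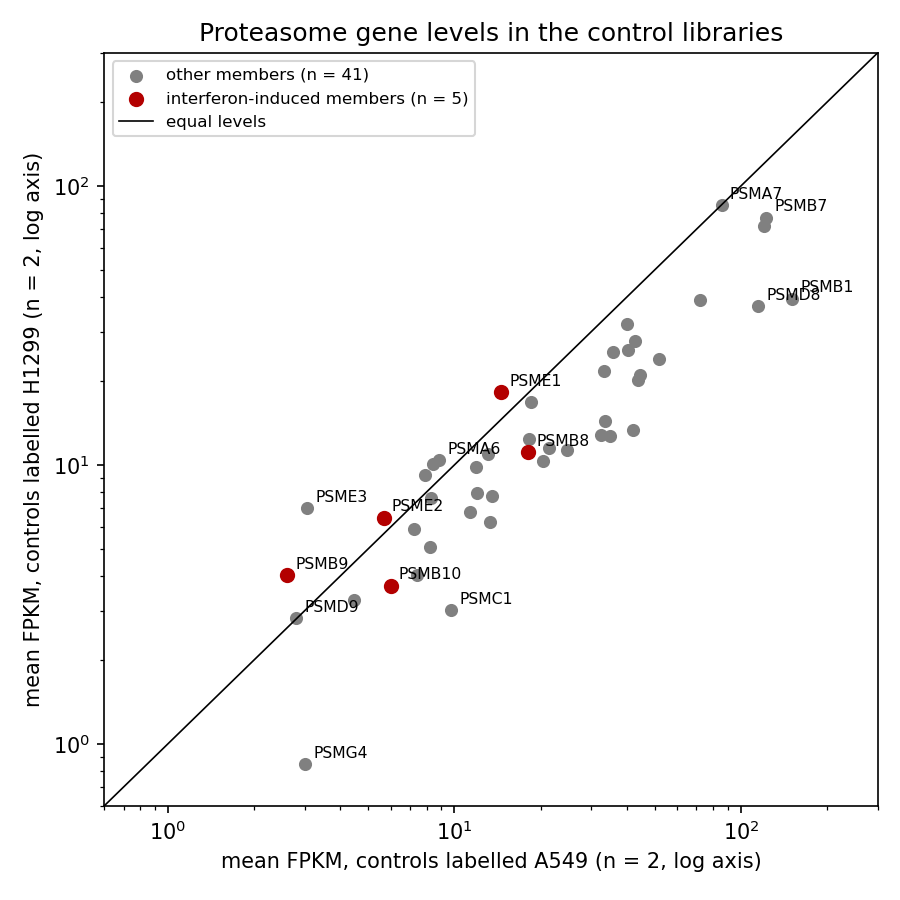
Mean FPKM of the 46 members tested in the controls labelled A549 (horizontal) and H1299 (vertical), both on log axes, with a line of equal levels. Most of the 41 other members lie below the line, and PSMB9, PSME1 and PSME2 lie above it.

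Genes around the proteasome were taken from 5 lists, and their changes are log2 fold changes unless FPKM is given. Of 16 genes of peptide loading and class I display, 10 rose and 3 fell labelled H1299, with a median log2 fold change of 0.53. Labelled A549, 5 rose and 1 fell, with a median of 0.22. Over all genes, 25.1% rose and 24.8% fell labelled H1299, and 7.3% and 8.66% labelled A549. Labelled H1299, TAPBPL, a peptide editor, rose by 0.79 and TAP2, a chain of the peptide transporter, from 4.93 ± 0.099 to 9.15 ± 0.11 FPKM (SD, n = 2 each). The endoplasmic reticulum chaperones CALR and CANX were the lowest called, at -0.53 and -0.51. Labelled A549, HLA-E rose by 0.69 and TAP1, the neighbour of PSMB9, by 0.51, while CANX was at -0.28. Reads of the closely related HLA genes can be misassigned, which makes their levels uncertain.

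Of 10 genes of interferon signalling and its response, 5 rose and 0 fell labelled A549, and 4 rose and 1 fell labelled H1299. The rises in both lines include GBP1, which is itself induced by interferon. The share of the 10 called labelled H1299 equalled that of all genes (50.0%), and the share labelled A549 was above the 16.0% of all genes. IRF1, a transcription factor of immunoproteasome genes, rose in both lines, from 2.86 ± 0.032 to 6.08 ± 0.49 FPKM labelled A549 and from 3.82 ± 0.053 to 7.58 ± 0.17 labelled H1299 (SD, n = 2 each, adjusted p = 7.91e-04 and 1.31e-04). The interferon-induced GTPase GBP1 rose by 1.31 labelled H1299, and the kinase JAK1 was lower there, at -0.34.

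Of 11 partners and assembly factors, 6 rose and 3 fell labelled H1299, where 50.0% of all genes changed, against 1 and 0 labelled A549, where 16.0% did. SEM1, a small cap subunit, and the deubiquitinase UCHL5 rose by 0.50 and 0.36. AKIRIN2, which brings proteasomes into the nucleus, had a log2 fold change of -0.87, from 30.7 ± 0.59 to 16.3 ± 0.16 FPKM, and ECPAS, a proteasome-binding scaffold, one of -0.50. Labelled A549, the ubiquitin receptor ADRM1 rose by 0.19.

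Of 10 genes of proteasome gene control and ubiquitin shuttling, 2 rose and 3 fell labelled H1299, and 1 rose and 0 fell labelled A549. The share called was that of all genes labelled H1299 (50.0%) and below that of all genes labelled A549 (16.0%). VCP, the segregase that extracts proteins for degradation, rose labelled H1299 from 45.4 ± 0.16 to 75.9 ± 0.57 FPKM, and the shuttle UBQLN1 rose by 0.26. The ubiquitin ligase SYVN1 was lower there, at -0.45, and rose by 0.30 labelled A549. NFE2L1, the transcription factor that restores proteasome genes when degradation fails, was named after its values were seen and was not called in either line (-0.36 and -0.42, adjusted p = 0.399 and 0.224). Of 8 genes of ubiquitin and its activating enzymes, 5 rose and 0 fell labelled H1299. The highest were UBA7 at 0.53 and UBE2L6 at 0.47, both enzymes of ISG15 conjugation. UBA7 reached 1 FPKM only in the 2 miR-29a-3p libraries labelled H1299, at 1.14 and 1.04 FPKM. It was tested only because of the group where it is high, so its call carries little weight. The 62.5% of the 8 genes called labelled H1299, a share that still includes UBA7, compares with 50.0% of all genes. None of the 8 was called labelled A549, against 16.0%.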

How the data were processed

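The authors deposited FPKM values for each gene in each library, per the file headers, with 27756 genes listed for A549 and 28609 for H1299. Genes listed under a single line were set to 0 in the other line. The submitters' processing notes name StringTie and GRCh38, with no aligner, annotation release or strand setting stated there. Values were used as deposited. Testing covered 14635 genes (1 FPKM or more in 2 or more libraries) and was done with limma (version 3.58.1, R 4.3.3) on log2(FPKM + 1), with 1 mean for each of 4 groups, a variance trend and Benjamini-Hochberg adjustment over all genes. It left 4 residual degrees of freedom and was tested on simulated data. Library totals were estimated from the FPKM value of 1 fragment in genes with 1 transcript, where 87.1% to 93.1% of values then came out whole within 0.02. The test was planned for counts or normalised values, and the form for the latter was used. Alternatives were a pseudocount of 0.1, no filter, a mean of at least 5 FPKM, rescaled libraries, a replicate block, no variance trend, each line alone and leaving out each library.

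The members and lists were chosen with earlier results of these data known. Named genes were the interferon-induced members, PSMB5 to PSMB7, PSME3, PSME4 and PSMF1, the 5 highest and 5 lowest members called in each comparison, members under the filter, and the 2 highest and 2 lowest called genes of each other list in each line. Some genes that this rule names are not reported here. Positions are from GENCODE release 29.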

Additional observations from a re-analysis of the deposited data

Results flagged for a closer look

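The response to miR-29a-3p differed between the lines in 19 of the 46 members, by limma's test of the response labelled A549 minus that labelled H1299 (adjusted p under 0.05), or 41.3% against 37.3% of all genes. Among the interferon-induced members, the difference was -0.51 for PSMB9, -0.53 for PSMB10, -0.35 for PSME1 and -0.58 for PSME2, each with the larger rise labelled H1299. That of PSMB8 was -0.18 and was not called (adjusted p = 0.162). The PSMB10 difference was lost when any library but miR-29a-3p 1 or 2 labelled H1299 was left out (adjusted p = 0.0656 to 0.107). The PSME1 difference was lost when any library but control 2 labelled A549 or control 1 labelled H1299 was left out (adjusted p = 0.0598 to 0.108).

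Of the constitutive catalytic genes, PSMB6 differed most, by -1.12, followed by PSMB5 at -0.56 and PSMB7 at 0.39. The PSMB5 difference was lost without any of 6 libraries (adjusted p = 0.0535 to 0.0856). The scaffold subunits PSMD1 and PSMD2 differed by -0.78 and -0.85, and the ubiquitin receptor PSMD4 by -0.59. Other core and cap genes with a negative difference were PSMA1 at -0.37, PSMA3 at -0.27, PSMB3 at -0.45, PSMD6 at -0.45 and PSMD8 at -0.21.

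A positive difference was seen in the ATPases PSMC2 at 0.24, PSMC4 at 0.38 and PSMC5 at 0.28, and in the assembly chaperone PSMG3 at 0.56. All of these fell labelled H1299. Labelled A549, PSMC2 fell by less (-0.29 against -0.53), and PSMC4, PSMC5 and PSMG3 were not called. The differences of PSMC2, PSMC5 and PSMD8 were each lost without at least 7 of the 8 libraries in turn (adjusted p = 0.0510 to 0.127).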

How the results depend on the processing

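The 5 rises of the interferon-induced members labelled H1299 kept their call under each of the alternatives run, and no called value of a named member changed sign. PSMB9 had 14 alternatives and each of the others 15, since PSMB9 was not tested with a mean of at least 5 FPKM. Over 1446 alternative values of 25 named members, 1327 kept their direction and side of the threshold, 106 lost a call and 13 gained one. The member count labelled A549 was 5 and fell to 3 with that line fitted alone. It ranged from 1 to 6 when 1 library was left out, with 3 without control 1, 1 without control 2, 3 without miR-29a-3p 1 and 2 without miR-29a-3p 2. In these fits the lone library of a group is assumed to vary like the other groups. The count of 19 members whose response differed between lines ranged from 11 to 15 when 1 library was left out, with 12 without control 1 labelled A549 and 11 without control 2 labelled H1299. The count of 26 labelled H1299 stayed within 20 to 26 and that of 38 between the controls within 32 to 38 under all alternatives run. With 1 FPKM added to each member, the immunoproteasome share was 12.4%, 16.03%, 14.1% and 19.98% in the controls and treated libraries labelled A549 and then H1299. The log2 ratio of PSMB9 to PSMB6 was then -3.65 and -3.07 labelled A549 and -2.13 in the controls labelled H1299, that of PSMB10 to PSMB7 -4.14, -3.72 and -4.06, and that of PSMB8 to PSMB5 -1.44 in the controls labelled H1299. Adding 1 FPKM raises the low members most. With the replicate number as a block, 4 members were called labelled A549, 23 labelled H1299, 16 in the difference and 38 between the controls. Same-numbered libraries did not deviate together (correlation 0.05 labelled A549 and -0.09 labelled H1299 over 3271 genes), so the numbers were not taken as pairs. Labelled A549, the block put PSMB9 above the threshold (adjusted p = 0.0502) and PSME3 below it (adjusted p = 0.0355). Over all genes, the count labelled A549 was 2336 and became 1261 with the block, 1071 with the line fitted alone and 1066 to 1212 without any 1 A549-labelled library. With a mean of at least 5 FPKM, 6085 genes were tested and 3773 called labelled H1299 (from 7312), 2984 in the difference (from 5464) and 4923 between the controls (from 10941). Depth limits PSMB11, for which no fold is given.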

Other observations

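The processed pseudogene PSMC1P1 stood at 267 and 279 FPKM in the controls labelled A549 and at 237 and 236 after miR-29a-3p, while PSMC1, the ATPase gene, was at 8.33 and 11.1 and then 8.94 and 9.21. Labelled H1299, PSMC1P1 stood at 79.8 and 76.2 in the controls and 71.1 and 67.4 FPKM after miR-29a-3p, and PSMC1 at 2.92 and 3.09 and then 2.49 and 2.60. The log2 fold change of PSMC1P1 was -0.21 labelled A549 (adjusted p = 0.0302) and -0.17 labelled H1299 (adjusted p = 0.0220). PSMA6P1, a copy of the alpha ring gene PSMA6, was at 9.80 to 15.02 FPKM, beside 8.001 to 12.04 for PSMA6. The other 21 pseudogenes of members in the table stayed at or below 4.27 FPKM.

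The core of the antioxidant response element, TGACNNNGC on either strand, which NFE2L1 and NFE2L2 recognise, was found in the promoter windows of 12 of 36 other members with an entry (33.3%) and in 3 of the 5 interferon-induced ones (PSMB9, PSME1 and PSME2), against 16.1% of all genes in the table. Of the 12 others with a match, PSMB3 and PSMD1 rose labelled H1299, PSMA4, PSMC4, PSMC5 and PSME4 fell, and the rest were not called. The match of the cap scaffold gene PSMD1 is at position 40, and PSMD2, the other scaffold gene that rose, holds none in either of its windows. Whether the match goes with a change was not tested.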
